A study of Homo sapiens with 8 samples.

Results

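Oncofetal genes are active in the embryo, switched off in most adult tissues and found again in many tumours. The set described here holds 10 of them, LIN28B, LIN28A, IGF2BP1, IGF2BP2, IGF2BP3, HMGA2, GPC3, AFP, SALL4 and DLK1. They were taken by symbol from the 18902 features analysed of a deposited RNA-seq table, and each symbol had 1 row. Of the 10 genes, 9 reached a mean of 0.5 FPKM over the 8 libraries and were tested; DLK1 did not. FPKM, a fragment count scaled to transcript length and library size, corrects for gene length, so levels can be set side by side between genes.

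The cells were MHCC-97H and MHCC-97L, human hepatocellular carcinoma lines named for high and low metastatic potential. The tested state was stable expression of Flag-OGT, the full-length wild-type human O-GlcNAc transferase with a C-terminal 3×Flag tag, brought in by the lentiviral vector pLVX-IRES-Luc-G418 and kept under drug selection. OGT is the enzyme that puts single N-acetylglucosamine sugars on nuclear and cytosolic proteins. The 4 groups of 2 libraries were MHCC-97H Flag-OGT, MHCC-97H control, MHCC-97L Flag-OGT and MHCC-97L control, all grown in DMEM with fetal calf serum. The controls carry no genotype label, and whether they held an empty vector, or whether the Flag-OGT cells were a pool or a clone, the sources used here do not give. The labels do not call the libraries of a group separate cultures, so p-values measure spread among these libraries, possibly technical.

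LIN28A and LIN28B are RNA-binding proteins that block the maturation of the let-7 microRNAs. The let-7 family in turn represses the mRNAs of LIN28B, HMGA2 and the IGF2BP proteins, so that the genes form a loop known from fetal tissues and from liver cancer. IGF2BP1, IGF2BP2 and IGF2BP3 bind and stabilise mRNAs such as IGF2, and HMGA2 is a chromatin protein that bends AT-rich DNA. GPC3 is a heparan sulfate proteoglycan of the cell surface and AFP the main serum protein of the fetus, and both serve as markers of hepatocellular carcinoma. SALL4 is a zinc-finger repressor of stem cells, and DLK1 is an imprinted membrane protein of fetal liver progenitors.

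The let-7 target site is shown first, because the mRNAs of 7 of the 10 genes carry it and the genes of this axis are the larger part of the set. The 8 human let-7 names with a 5p arm in RefSeq (GRCh38.p14) all share the seed GAGGUAG, bases 2 to 8 of the microRNA, written in capitals in let-7a.
let-7a-5p: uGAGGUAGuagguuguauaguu
A 3′ UTR match to this seed followed by an A reads CTACCTCA, and it was counted on the transcript strand in the principal transcript of each gene (GENCODE v29, GRCh38). IGF2BP1 had 3 such sites in 6206 bases and LIN28B 2 in 4549 bases. LIN28A, IGF2BP2, IGF2BP3, HMGA2 and SALL4 had 1 each, and GPC3, AFP and DLK1 had 0. The windows of 30 bases below are written 5′ to 3′ on the transcript strand with the site in capitals.
LIN28B, chr6:105078816-105078845, plus strand: ggttgcaaagtCTACCTCAtgcaagtatag
LIN28B, chr6:105081425-105081454, plus strand: acagcaaaaggCTACCTCAtagttgataca
LIN28A, chr1:26427352-26427381, plus strand: agcctattgaaCTACCTCAtttttgccaat
IGF2BP1, chr17:49051065-49051094, plus strand: tgcgaagtaaaCTACCTCAaggtatgaagt
IGF2BP1, chr17:49053702-49053731, plus strand: agtgctagtaaCTACCTCAcagagccccag
IGF2BP1, chr17:49054356-49054385, plus strand: aaatggattaaCTACCTCAatccttacagt
IGF2BP2, chr3:185644209-185644238, minus strand: cacagaagaagCTACCTCAggtgtttttac
IGF2BP3, chr7:23311784-23311813, minus strand: tttttactcaaCTACCTCAggtattcagta
HMGA2, chr12:65963302-65963331, plus strand: acgttcgatttCTACCTCAgcagcagttgg
SALL4, chr20:51782912-51782941, minus strand: ctttaatttatCTACCTCAtttatttttta
A match is a description of these letters. Mature let-7 levels were not analysed here.

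Before the results, the libraries themselves need description. Summed FPKM ran from 510449 to 613101 per library and the read depth is unknown. On log2(FPKM + 1) values of the 13553 tested genes, r was at least 0.957 where 2 libraries shared the state but not the line and at most 0.753 where they shared the line but not the state. Libraries that shared neither line nor state had r of 0.722 to 0.741, so Flag-OGT libraries were nearly as far from the controls of their own line, at 0.725 to 0.753, as from those of the other line. The libraries thus grouped by state and not by line. A difference with Flag-OGT below is therefore a difference between these sets of libraries, and an effect of Flag-OGT cannot be told apart from any other difference between the cells, their origin included. OGT itself stood at 59.04 and 58.38 FPKM in MHCC-97H Flag-OGT libraries, against 32.53 and 34.16 FPKM in MHCC-97H controls. It stood at 50.95 and 54.54 FPKM in MHCC-97L Flag-OGT libraries, against 45.73 and 43.90 FPKM in MHCC-97L controls, and this difference of 0.23 ± 0.06 on the log2 scale (limma, adjusted p = 0.0034) lost its call when each library was brought to one summed FPKM (0.11, adjusted p = 0.099) or scaled by median of ratios (0.02, adjusted p = 0.69).

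Markers of cell types differed between the states as well, and not all in one direction. Of the 9 hepatocyte markers, the summed level was 1.42 to 4.47 FPKM in Flag-OGT libraries, where TTR was listed at 0, and 23.84 to 109.83 FPKM in controls. That control range spans unlike lines, as TF had 2.14 and 2.04 FPKM in MHCC-97H controls and 43.7 and 42.9 FPKM in MHCC-97L controls. Not every marker was higher in MHCC-97L controls, where HNF4A had 13.89 and 13.4 FPKM against 14.63 and 14.59 FPKM in MHCC-97H controls. Fibroblast markers (6 genes) summed to 14.56 to 19.90 FPKM in Flag-OGT libraries, with COL1A2 at 0, and to 4.52 to 12.15 FPKM in controls, but the sum hides members that moved in opposite directions. ACTA2, a smooth muscle actin, had 8.28 to 16.01 FPKM in Flag-OGT libraries and 0 to 0.16 FPKM in controls, and the collagen gene COL1A1 had 3.62 to 6.19 FPKM in Flag-OGT libraries and 0.04 to 0.18 FPKM in controls. The matrix proteoglycan LUM had 0 to 0.08 FPKM in Flag-OGT libraries and 4 to 11.52 FPKM in controls, and DCN, another, had 0 to 0.05 FPKM in Flag-OGT libraries and 0.09 to 0.57 FPKM in controls. Leukocyte markers (6 genes) summed to 2.75 to 8.70 FPKM in Flag-OGT libraries, with CD3E at 0, and to 69.02 to 82.47 FPKM in controls. Most of the control sum was CD68, a lysosomal protein of macrophages, with 0.97 to 2.38 FPKM in Flag-OGT libraries and 63.43 to 79.80 FPKM in controls. LYZ, which encodes lysozyme, had 4.53 and 4.84 FPKM in MHCC-97L Flag-OGT libraries against 2.23 and 3.35 FPKM in controls, and was called higher there (0.60 ± 0.13, limma, adjusted p = 0.0019). The pan-leukocyte marker PTPRC overlapped between the states in both lines. Endothelial markers (5 genes) summed to 0.66 to 1.57 FPKM in Flag-OGT libraries, with CDH5 at 0, and to 33.46 to 46.37 FPKM in controls. Of these, the junction protein ESAM had 0.50 to 1.15 FPKM in Flag-OGT libraries and 26.51 to 37.17 FPKM in controls. PECAM1 had 0.12 to 0.48 FPKM in Flag-OGT libraries and 4.59 to 8.57 FPKM in controls, KDR had 0.01 to 0.04 FPKM in Flag-OGT libraries and 0.54 to 2.43 FPKM in controls, and VWF did not pass 0.07 FPKM anywhere. The marker sums differed between the states alongside every difference given below, though single markers such as PTPRC did not. The part of the markers in those differences was not tested. In bulk RNA, fewer cells of a type and less RNA per cell cannot be told apart.

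With Flag-OGT, LIN28B and GPC3 were present in both lines while the controls were at or beside 0, IGF2BP1, IGF2BP2 and HMGA2 rose, and IGF2BP3 and AFP fell. In MHCC-97H, 8 of the 9 tested genes were called at an adjusted p under 0.05, 6 higher and 2 lower, with LIN28A not called. In MHCC-97L 8 were called too, 6 higher and 2 lower, with SALL4 not called. Among all tested genes 84.6% were called in MHCC-97H (48.2% higher, 36.3% lower) and 84.8% in MHCC-97L (50.1% higher, 34.7% lower), so a count of 8 in 9 is near the background and is no result about the set. LIN28B and GPC3 passed the filter only through the Flag-OGT libraries, and AFP only through the controls, so a difference in these 3 was a condition of being tested. LIN28A and SALL4 lay close to the filter, with means of 0.635 and 0.5325 FPKM in Flag-OGT libraries and 0.41 and 0.495 FPKM in controls. Of all tested genes, 1255 reached the filter in Flag-OGT libraries only and 861 in controls only, 15.6% together. Of the 9 genes, 4 did so in Flag-OGT libraries only, LIN28A and SALL4 among them, and 1 in controls only, 55.6% together. For genes of the lists below that reached the filter in 1 state only, a difference was likewise a condition of being tested. As a description, the median log2 change of the 9 genes was 0.56 in MHCC-97H and 0.89 in MHCC-97L, beside 0.15 and 0.19 for all tested genes. That median includes the genes that reached the filter in 1 state only, so it is no result about the set. With median-of-ratios scaling the shift of all tested genes was -0.00 in MHCC-97H and 0.02 in MHCC-97L, so changes of about 0.2 are close to what scaling moves.

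**Figure D1:**
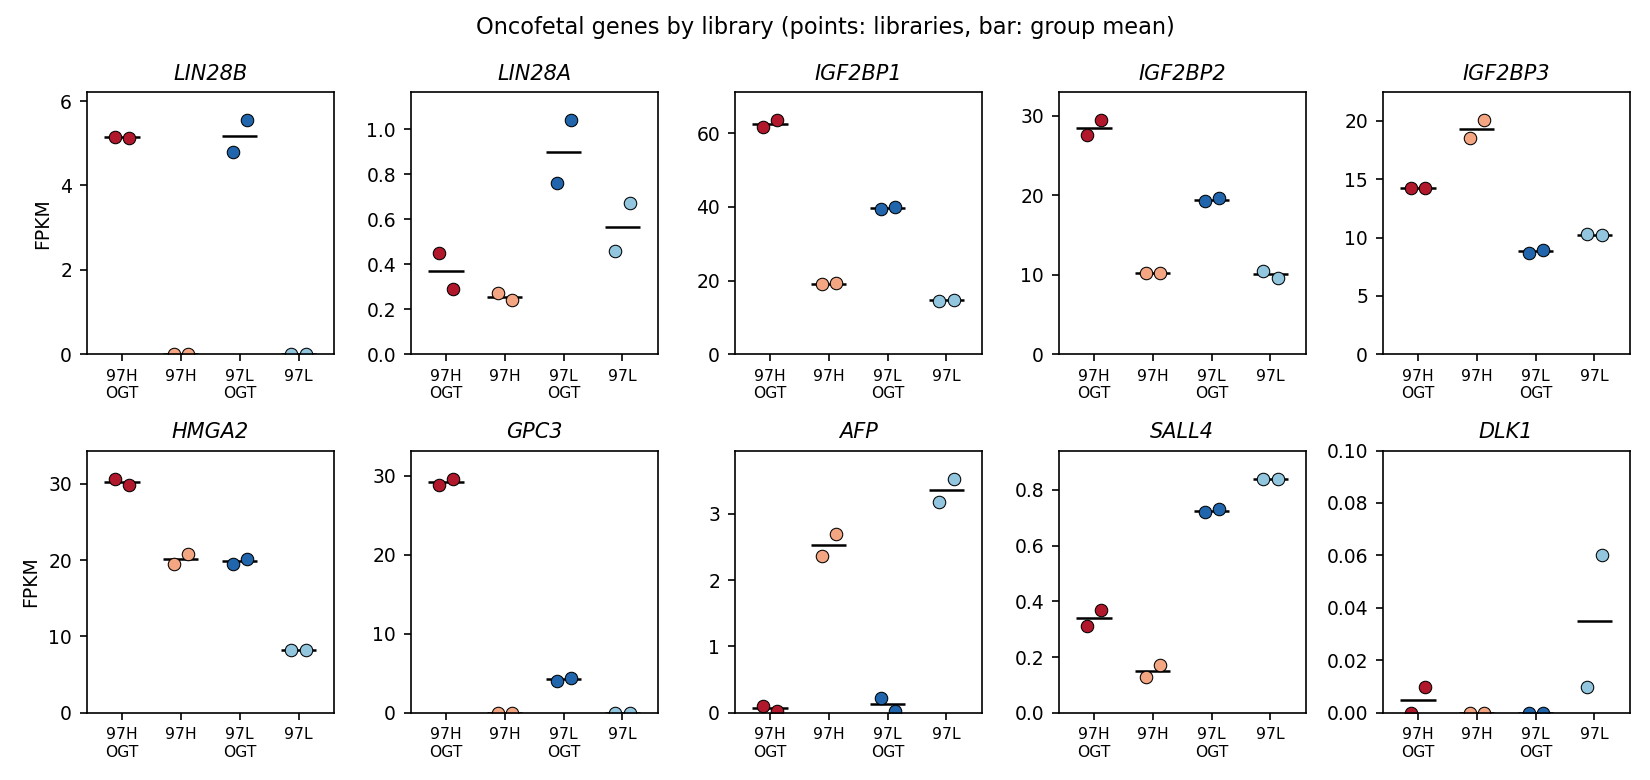
Deposited FPKM of the 10 oncofetal genes in each of the 8 libraries, with a panel and a linear axis per gene; points are libraries and bars are group means. LIN28B and GPC3 lie at or next to 0 in every control library, AFP lies under 0.3 FPKM in every Flag-OGT library, and DLK1 does not pass 0.06 FPKM anywhere.

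LIN28B, the let-7 blocker that acts in many liver cancers, was present in Flag-OGT libraries of both lines and listed at or beside 0 in all controls. It stood at 5.16 and 5.13 FPKM in MHCC-97H Flag-OGT libraries and was listed at 0 in both MHCC-97H controls. In MHCC-97L it stood at 4.79 and 5.55 FPKM with Flag-OGT, and at 0.01 and 0 FPKM in controls. The groups did not overlap in either line, and both Flag-OGT groups reached the same range. The log2 change, on the log2(FPKM + 1) scale used throughout, was 2.62 ± 0.08 (SE; limma, adjusted p = 3.1e-10) in MHCC-97H and 2.62 ± 0.08 (adjusted p = 3.7e-10) in MHCC-97L. These sizes depend on the added 1, and were 5.71 and 5.65 with 0.1 added in its place. The difference between the lines' changes was 0.00, with a 95% interval of -0.24 to 0.25 (adjusted p = 0.98).

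LIN28A, its paralog of pluripotent cells, stayed low in every library. It had 0.45 and 0.29 FPKM in MHCC-97H Flag-OGT libraries against 0.27 and 0.24 FPKM in controls, and the change of 0.12 ± 0.10 was not called (adjusted p = 0.26; -0.10 after quantile normalization). In MHCC-97L it had 0.76 and 1.04 FPKM with Flag-OGT against 0.46 and 0.67 FPKM in controls. That change of 0.28 ± 0.10 was called (limma, adjusted p = 0.024) but lost under no filter, under all 3 other scalings (0.15 to 0.22) and without replicate 1 of the MHCC-97L controls (0.18, adjusted p = 0.17) or replicate 2 of MHCC-97L Flag-OGT (0.17, adjusted p = 0.17).

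The 3 IGF2BP proteins are close paralogs, and their mRNAs did not move together. IGF2BP1, the most abundant of the set in both Flag-OGT groups, stood at 61.70 and 63.59 FPKM in MHCC-97H Flag-OGT libraries, against 18.95 and 19.32 FPKM in MHCC-97H controls. In MHCC-97L it stood at 39.57 and 39.87 FPKM with Flag-OGT, against 14.55 and 14.80 FPKM in controls. Flag-OGT libraries were higher in both lines with no overlap, by 3.27-fold in MHCC-97H (log2 change 1.66 ± 0.05, adjusted p = 5.1e-10) and 2.71-fold in MHCC-97L (1.38 ± 0.05, adjusted p = 2.5e-09). The order of its levels was MHCC-97H Flag-OGT, MHCC-97L Flag-OGT, MHCC-97H control and MHCC-97L control, with no neighbours overlapping.

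IGF2BP2, which is also expressed in adult tissues, had 27.53 and 29.46 FPKM in MHCC-97H Flag-OGT libraries, against 10.17 and 10.23 FPKM in MHCC-97H controls. With Flag-OGT in MHCC-97L it had 19.28 and 19.64 FPKM, against 10.53 and 9.57 FPKM in controls. It was higher by 2.79-fold in MHCC-97H (1.40 ± 0.07, adjusted p = 1.1e-08) and 1.94-fold in MHCC-97L (0.89 ± 0.07, adjusted p = 4.3e-07), while the controls of both lines overlapped.

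IGF2BP3, a marker of aggressive tumours, fell. It had 14.25 and 14.21 FPKM in MHCC-97H Flag-OGT libraries, against 18.52 and 20.06 FPKM in MHCC-97H controls, a log2 change of -0.41 ± 0.06 (adjusted p = 0.00011). Its MHCC-97L values were 8.70 and 8.93 FPKM with Flag-OGT, against 10.27 and 10.24 FPKM in controls, a log2 change of -0.20 ± 0.06 (adjusted p = 0.012). The call in MHCC-97L was lost without either MHCC-97L control (adjusted p = 0.054 without replicate 1 and 0.050 without replicate 2), with the change still at -0.20.

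As a share of the family's summed FPKM, IGF2BP3 made up 13.5% in MHCC-97H Flag-OGT libraries and 39.7% in MHCC-97H controls. In MHCC-97L its share was 13.0% with Flag-OGT and 29.3% in controls. IGF2BP2 held 27.0% in MHCC-97H Flag-OGT libraries and 21.0% in their controls, but 28.6% in MHCC-97L Flag-OGT libraries and 28.7% in their controls, where the groups overlapped. IGF2BP1 held 59.5% and 58.4% in the Flag-OGT groups of MHCC-97H and MHCC-97L, and 39.4% and 42.0% in their controls. The family's sum was 103.48 and 107.26 FPKM in MHCC-97H Flag-OGT libraries against 47.64 and 49.61 FPKM in controls, and 67.55 and 68.44 FPKM in MHCC-97L Flag-OGT libraries against 35.35 and 34.61 FPKM in controls. In both lines IGF2BP1 thus held more and IGF2BP3 less of the sum in Flag-OGT libraries than in controls.

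The promoter windows of IGF2BP2 and IGF2BP3 are shown because these paralogs moved in opposite directions and because the series is about the zinc-finger factor ZNF263, whose known motif is built on GGAGGA. Windows run from 250 bases before to 50 after a RefSeq start (GRCh38.p14), are written 5′ to 3′ on the gene's strand, and have GGAGGA or its complement TCCTCC in capitals. The IGF2BP2 window of its first start is chr3:185824993-185825292, minus strand, and the IGF2BP3 window is chr7:23470442-23470741, minus strand.
IGF2BP2: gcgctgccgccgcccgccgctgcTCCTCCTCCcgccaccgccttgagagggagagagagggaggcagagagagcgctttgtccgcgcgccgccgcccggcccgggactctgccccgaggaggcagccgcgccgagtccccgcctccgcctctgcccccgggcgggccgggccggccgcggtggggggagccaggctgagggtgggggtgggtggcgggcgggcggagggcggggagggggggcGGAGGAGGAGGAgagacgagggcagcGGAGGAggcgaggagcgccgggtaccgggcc
IGF2BP3: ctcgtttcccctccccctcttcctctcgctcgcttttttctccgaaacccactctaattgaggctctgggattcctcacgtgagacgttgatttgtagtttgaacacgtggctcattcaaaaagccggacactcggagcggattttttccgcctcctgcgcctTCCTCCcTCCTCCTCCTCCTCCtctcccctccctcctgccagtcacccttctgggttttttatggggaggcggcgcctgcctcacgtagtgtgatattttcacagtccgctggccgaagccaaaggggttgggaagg
Counting overlapping matches on both strands, IGF2BP2 held 6 and IGF2BP3 held 5, while the second IGF2BP2 start held 0. LIN28B held 1 at its first start and 0 at its second, and AFP held 0. Of 35116 promoter windows of the same length, 36.6% held the motif at least once. Promoter windows of the other 6 genes were not used here, and the binding data of the series were not analysed here.

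**Figure D2:**
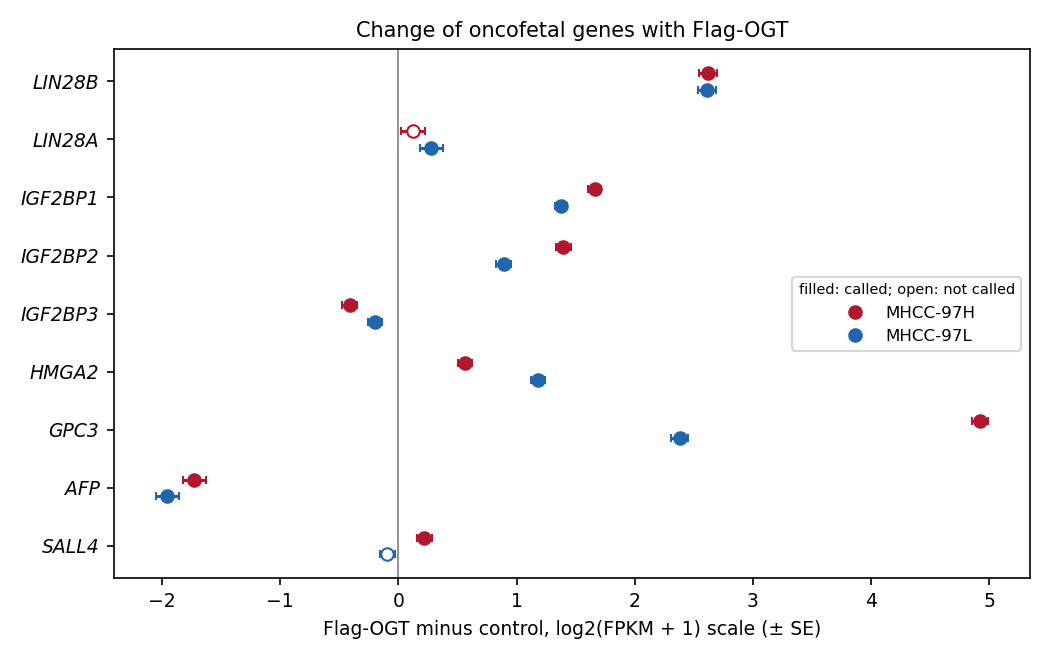
Log2 change of the 9 tested oncofetal genes on the log2(FPKM + 1) scale, Flag-OGT minus control, in MHCC-97H (red) and MHCC-97L (blue); bars are ± SE from limma, filled points were called at an adjusted p under 0.05 and open points were not. GPC3 shows the widest gap between the lines, and IGF2BP3 and AFP lie left of 0 in both.

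Of 8 measured mRNAs known to be bound by IGF2BP proteins, 5 were called higher and 3 lower in MHCC-97H, and 4 and 4 in MHCC-97L. Beside these counts, 48.2% of all tested genes were called higher and 36.3% lower in MHCC-97H, and 50.1% and 34.7% in MHCC-97L. MAPK4, with a log2 change of 2.16 in MHCC-97H, passed the filter only through the Flag-OGT libraries. IGF2, the fetal growth factor that gave the family its name, had 2.82 and 2.65 FPKM in MHCC-97H Flag-OGT libraries against 0.82 and 0.60 FPKM in controls. In MHCC-97L it had 5.03 and 4.34 FPKM with Flag-OGT against 0.62 and 0.44 FPKM in controls, and it rose in both lines (log2 changes 1.13 ± 0.10, adjusted p = 1.4e-06, and 1.89 ± 0.10, adjusted p = 2.6e-08). CD44, a hyaluronan receptor, fell to 0.27 and 0.23 FPKM in MHCC-97H Flag-OGT libraries, against 122.56 and 128.47 FPKM in controls, and passed the filter only through the controls. The oncogene MYC went opposite ways, with a log2 change of 1.49 ± 0.06 in MHCC-97H and -0.47 ± 0.06 in MHCC-97L (adjusted p = 2.1e-09 and 2.1e-05). The median of the 8 was 0.78 in MHCC-97H and 0.27 in MHCC-97L, beside 0.15 and 0.19 over all tested genes. The counts and the median include MAPK4 and CD44, so neither is a result about the list.

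HMGA2, a chromatin protein of embryonic growth and a classic let-7 target, rose in both lines and more so in MHCC-97L. It had 30.67 and 29.82 FPKM in MHCC-97H Flag-OGT libraries, against 19.44 and 20.85 FPKM in MHCC-97H controls. MHCC-97L libraries had 19.46 and 20.20 FPKM with Flag-OGT, against 8.17 and 8.18 FPKM in controls. The MHCC-97L Flag-OGT libraries overlapped the MHCC-97H controls, and no other groups overlapped. The increase was 1.5-fold in MHCC-97H (0.56 ± 0.06, adjusted p = 7.3e-06) and 2.43-fold in MHCC-97L (1.183 ± 0.06, adjusted p = 2.3e-08).

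The listed let-7 targets outside the set went both ways. Of 19 tested, 14 were called higher and 4 lower in MHCC-97H, and 12 and 6 in MHCC-97L. That 18 of 19 were called in each line is near the background of 84.6% and 84.8%, with 48.2% and 50.1% of all tested genes called higher and 36.3% and 34.7% lower. Their median log2 change was 0.57 in MHCC-97H and 0.38 in MHCC-97L, beside 0.15 and 0.19 over all tested genes. Of the 19, 3 reached the filter only through the Flag-OGT libraries, CCND2 among them. The counts and the median include these 3, so neither is a result about the list. Only 8 of the 19 held a CTACCTCA site in the 3′ UTR read here and 11 held none, among them CCND2, CDC25A, ARID3B, CCND1 and HMGA1, described next. CCND2, a G1 cyclin, had 19.77 and 19.02 FPKM in MHCC-97H Flag-OGT libraries against 0 and 0.02 FPKM in controls, and 12.07 and 13.27 FPKM in MHCC-97L Flag-OGT libraries against 0.01 and 0.03 FPKM in controls, so it passed the filter only through the Flag-OGT libraries. CDC25A, a cell cycle phosphatase, had 52.19 and 53.84 FPKM in MHCC-97H Flag-OGT libraries against 7.97 and 8.16 FPKM in controls. The DNA-binding protein ARID3B rose by 2.93 ± 0.07 in MHCC-97H and 2.54 ± 0.07 in MHCC-97L on the log2 scale (adjusted p = 5.5e-11 and 1.9e-10).

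Among those that fell was the cyclin CCND1, with log2 changes of -1.74 ± 0.05 in MHCC-97H and -1.55 ± 0.05 in MHCC-97L (adjusted p = 5.1e-10 and 1.5e-09). HMGA1, the paralog of HMGA2, also fell, by 1.16 in MHCC-97H and by 1.42 in MHCC-97L on the log2 scale, and near-identical pseudogenes make its counts uncertain. Among the 19, FIGN, with 3 sites, changed sign in MHCC-97H under quantile normalization (-0.02), and its call in MHCC-97L was lost under all 3 other scalings.

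Across the table, 482 of 13211 tested genes with a 3′ UTR and outside the set held at least 1 CTACCTCA site. Their median log2 change was 0.29 in MHCC-97H and 0.37 in MHCC-97L, beside 0.14 and 0.18 for all 13211. Of the 482, 55.6% were called higher and 29.3% lower in MHCC-97H, and 57.1% and 29.5% in MHCC-97L. For all 13211 the shares were 48.2% higher and 36.7% lower in MHCC-97H, and 49.9% and 35.0% in MHCC-97L. Their 3′ UTRs had a median of 3000.5 bases, beside 1067 bases for all, and the part of UTR length in these medians was not tested.

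**Figure D3:**
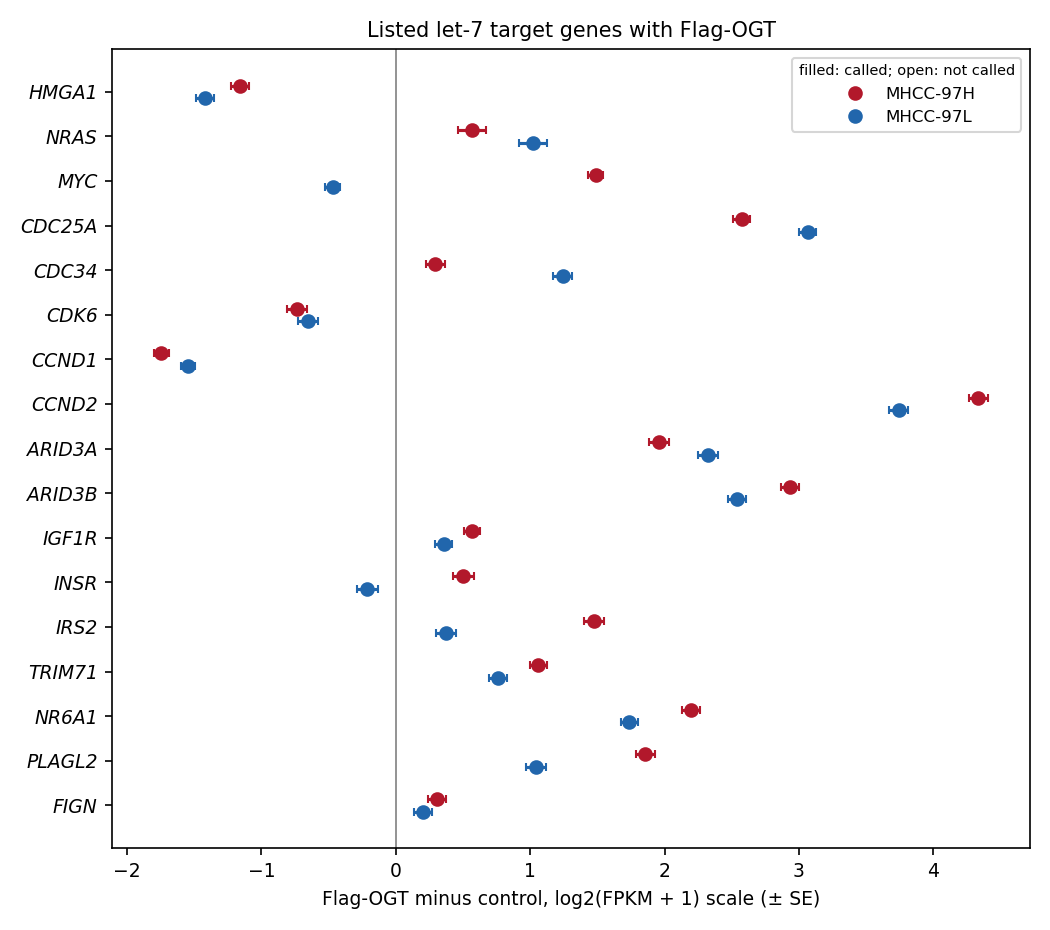
Log2 change of 17 of the 19 tested let-7 targets outside the oncofetal set, Flag-OGT minus control on the log2(FPKM + 1) scale, in MHCC-97H (red) and MHCC-97L (blue); bars are ± SE from limma, and all points drawn were called. CCND2, CDC25A and ARID3B lie farthest right and CCND1 farthest left, and MYC and INSR lie on opposite sides of 0 in the 2 lines.

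Genes that act on let-7 and its precursors were measured as well, some promoting its maturation and some opposing it. Of 10, 9 were called higher and 1 lower in MHCC-97H, and 8 and 2 in MHCC-97L. Of all tested genes, 48.2% and 50.1% were called higher and 36.3% and 34.7% lower. As the roles differ, these counts give no direction for let-7 itself. TUT4, the uridylyl transferase that LIN28 recruits to precursor let-7, had 8.59 and 9 FPKM in MHCC-97H Flag-OGT libraries against 2.17 and 2.12 FPKM in controls. MHCC-97L libraries had 8.39 and 9.48 FPKM with Flag-OGT against 2.28 and 2.89 FPKM in controls. It rose by 1.64 ± 0.09 and 1.47 ± 0.09 on the log2 scale (adjusted p = 5.0e-08 and 1.3e-07). TUT7, its paralog, fell to 1.59 and 1.51 FPKM in MHCC-97H Flag-OGT libraries against 5.05 and 5.72 FPKM in controls, and to 2.77 and 2.93 FPKM in MHCC-97L Flag-OGT libraries against 4.80 and 4.65 FPKM in controls. KHSRP, which promotes let-7 processing, rose by 0.77 ± 0.06 in MHCC-97H and 1.74 ± 0.06 in MHCC-97L (adjusted p = 1.2e-06 and 2.2e-09). TARBP2, the Dicer partner, was called higher in MHCC-97H (0.22 ± 0.07, adjusted p = 0.010; 0.02 and not called with median-of-ratios scaling) and lower in MHCC-97L (-0.34 ± 0.07, adjusted p = 0.00077). Under median-of-ratios scaling, 8 rose in MHCC-97H and 7 in MHCC-97L. The list's median log2 change was 0.79 in MHCC-97H and 1.23 in MHCC-97L, beside 0.15 and 0.19 over all tested genes.

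GPC3, the cell-surface proteoglycan used as a marker of hepatocellular carcinoma, was listed at 0 in all 4 controls. It stood at 28.89 and 29.66 FPKM in MHCC-97H Flag-OGT libraries and at 4 and 4.43 FPKM in MHCC-97L Flag-OGT libraries. The Flag-OGT groups did not overlap each other, and MHCC-97H stood 6.95-fold above MHCC-97L. The log2 change was 4.92 ± 0.07 in MHCC-97H (limma, adjusted p = 3.2e-12) and 2.38 ± 0.07 in MHCC-97L (adjusted p = 4.1e-10). With 0.1 added in place of 1, these were 8.20 and 5.43, so the sizes are not bounds on a fold. The difference between the changes was 2.54 ± 0.10 (adjusted p = 6.9e-08).

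GPC3 lies on the X chromosome next to GPC4, another glypican, in RefSeq gene order (GRCh38.p14). GPC4 had 13.32 and 14.26 FPKM in MHCC-97H Flag-OGT libraries and was listed at 0 in both controls. MHCC-97L libraries had 6.80 and 6.75 FPKM with Flag-OGT and 0.01 and 0 FPKM in controls, so the same libraries were high and low as for GPC3. On the other side, CCDC160 reached at most 0.19 FPKM, and PHF6, the next gene, had 7.64 and 7.22 FPKM in MHCC-97H Flag-OGT libraries against 8.20 and 10.26 FPKM in controls. In MHCC-97L, PHF6 went the other way, with 7.20 and 8.74 FPKM with Flag-OGT against 5.56 and 5.71 FPKM in controls. The neighbours were looked up after the values of GPC3 were known.

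Of the 4 other glypicans tested, of which GPC2 and GPC4 passed the filter only through the Flag-OGT libraries, 3 were called higher and 1 lower in MHCC-97H, and 2 and 2 in MHCC-97L. The shares over all tested genes were 48.2% higher and 36.3% lower in MHCC-97H, and 50.1% and 34.7% in MHCC-97L. GPC1, the main glypican of the controls, fell to 19.97 and 18.65 FPKM in MHCC-97H Flag-OGT libraries against 135.65 and 117.83 FPKM in controls, and to 17.07 and 15.32 FPKM in MHCC-97L Flag-OGT libraries against 96.24 and 100.28 FPKM in controls. GPC2, a neural glypican, rose by 1.40 ± 0.09 in MHCC-97H and 0.93 ± 0.09 in MHCC-97L (adjusted p = 1.6e-07 and 4.5e-06). GPC6 was called higher in MHCC-97H (0.43 ± 0.08, adjusted p = 0.00049; 0.09 and not called under quantile normalization) and lower in MHCC-97L (-0.26 ± 0.08, adjusted p = 0.0099). GPC5 did not pass the filter and reached at most 0.91 FPKM. The median of the 4 was 0.92 in MHCC-97H and 0.33 in MHCC-97L, beside 0.15 and 0.19 over all tested genes. The counts and the median include GPC2 and GPC4, so neither is a result about the family.

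**Figure D4:**
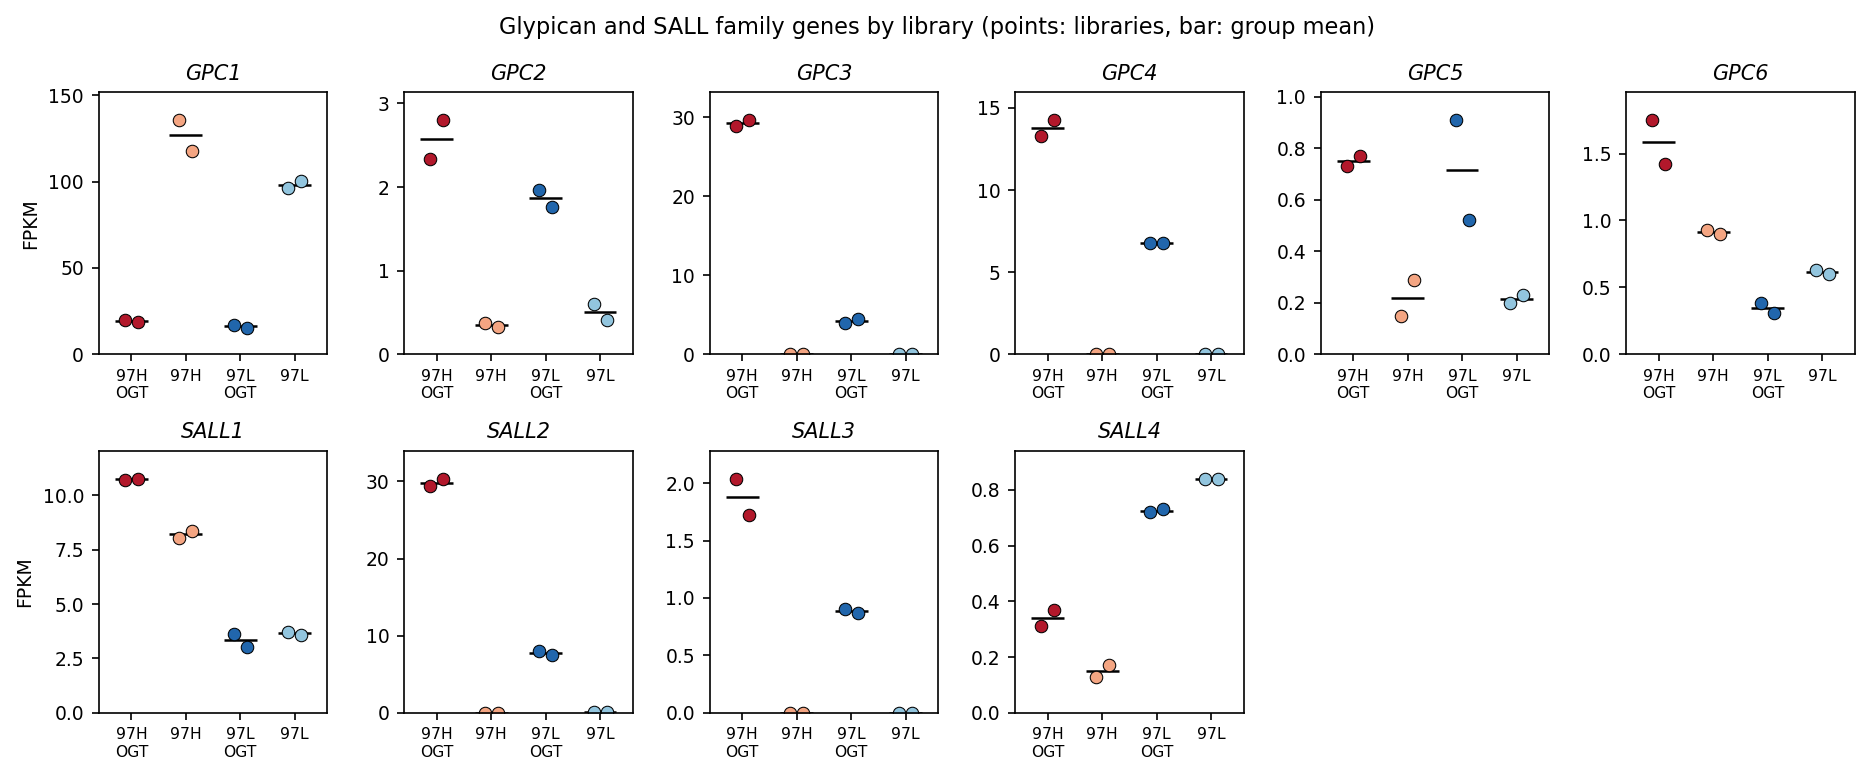
Deposited FPKM of the 6 glypican genes and the 4 SALL genes in each of the 8 libraries, with a linear axis per gene; points are libraries and bars are group means. GPC3, GPC4, SALL2 and SALL3 lie at or next to 0 in every control library, while GPC1 is highest in the controls.

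AFP, the serum protein of the fetal liver, fell in both lines. It had 0.10 and 0.03 FPKM in MHCC-97H Flag-OGT libraries, against 2.36 and 2.70 FPKM in MHCC-97H controls. In MHCC-97L it had 0.22 and 0.03 FPKM with Flag-OGT, against 3.18 and 3.53 FPKM in controls. All Flag-OGT libraries lay below all controls, while the Flag-OGT groups overlapped each other. The mean FPKM was 0.0257 times the control's in MHCC-97H (log2 change -1.73 ± 0.10, limma, adjusted p = 4.7e-08) and 0.0373 times in MHCC-97L (-1.96 ± 0.10, adjusted p = 2.1e-08). With 0.1 added in place of 1, the log2 changes were -4.02 and -4.08. AFP thus moved against GPC3, although both mark hepatocellular carcinoma.

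Of the factors known to control AFP, 10 of 12 were tested, and 8 fell and 2 rose in each line, beside 36.3% and 34.7% of all tested genes called lower. Of the 8, 3 passed the filter only through the controls, among them HNF4A and ZBTB20. The hepatocyte factor HNF4A had 0.03 and 0.04 FPKM in MHCC-97H Flag-OGT libraries against 14.63 and 14.59 FPKM in controls, and 0.02 and 0.01 FPKM in MHCC-97L Flag-OGT libraries against 13.89 and 13.40 FPKM in controls. FOXA2, a pioneer factor of liver genes, had 0.69 and 0.49 FPKM in MHCC-97H Flag-OGT libraries against 48.33 and 40.62 FPKM in controls. Of the 2 that rose, ZHX2 is known as a repressor of AFP in mouse liver (1.47 ± 0.08 in MHCC-97H and 1.28 ± 0.08 in MHCC-97L, adjusted p = 5.2e-08 and 1.7e-07). ZBTB20, also a repressor of AFP after birth in mouse liver, fell by 0.82 in MHCC-97H and by 1.02 in MHCC-97L (adjusted p = 7.8e-07 and 1.4e-07). The list's median was -1.62 in MHCC-97H and -2.38 in MHCC-97L, beside 0.15 and 0.19 over all tested genes. The count and the median include the 3 genes that passed only through the controls, so neither is a result about the list.

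The AFP promoter window, chr4:73435971-73436270, plus strand (RefSeq, GRCh38.p14), is shown because AFP fell in both lines. Its TATA box TATAAA, in capitals, begins at base -29 from the start.
AFP: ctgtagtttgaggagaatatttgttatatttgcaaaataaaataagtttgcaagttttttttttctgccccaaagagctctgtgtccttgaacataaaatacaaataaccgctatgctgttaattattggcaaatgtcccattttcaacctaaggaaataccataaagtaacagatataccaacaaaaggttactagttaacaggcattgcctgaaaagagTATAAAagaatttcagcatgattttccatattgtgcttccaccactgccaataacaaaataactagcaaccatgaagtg
On either strand, TATAAA was found in 11.5% of the 35116 windows.

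The albumin gene family, which lies beside AFP in the genome, was low or absent with Flag-OGT. ALB, the adult counterpart of AFP, had 0.06 and 0.02 FPKM in MHCC-97H Flag-OGT libraries against 1.78 and 1.95 FPKM in controls. MHCC-97L libraries had 0.12 and 0.07 FPKM with Flag-OGT against 13.42 and 14.18 FPKM in controls, with log2 changes of -1.46 ± 0.07 and -3.76 ± 0.07 (adjusted p = 1.7e-08 and 1.9e-11). ALB passed the filter only through the controls, so a difference was a condition of being tested. AFM was listed at 0 in all Flag-OGT libraries and reached at most 0.36 FPKM in controls, and GC was listed at 0 in all 8 libraries; neither was tested. Among hepatocyte markers, 6 of 7 tested fell in MHCC-97H and 7 of 7 in MHCC-97L, beside 36.3% and 34.7% of all tested genes called lower. However, 5 of the 7 passed the filter only through the controls, so the count supports nothing further. APOA1, the one not called in MHCC-97H, changed by 0.26 ± 0.20 there (adjusted p = 0.25).

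SALL4, the stem-cell repressor, stayed below 1 FPKM everywhere. It had 0.31 and 0.37 FPKM in MHCC-97H Flag-OGT libraries against 0.13 and 0.17 FPKM in controls, with no overlap. The log2 change of 0.22 ± 0.07 was called (limma, adjusted p = 0.010), but lost under quantile normalization (0.06, adjusted p = 0.44), without replicate 1 of the MHCC-97H controls (0.20, adjusted p = 0.053) and without replicate 2 of MHCC-97H Flag-OGT (0.19, adjusted p = 0.050). MHCC-97L libraries had 0.72 and 0.73 FPKM with Flag-OGT against 0.84 and 0.84 FPKM in controls. That change of -0.09 ± 0.07 was not called (adjusted p = 0.21), but it was called without a filter (adjusted p = 0.038), with median-of-ratios scaling (-0.18, adjusted p = 0.026) and with quantile normalization (-0.22, adjusted p = 0.013).

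The other SALL genes were measured as well. SALL2, a zinc-finger factor linked to growth arrest, had 29.34 and 30.36 FPKM in MHCC-97H Flag-OGT libraries against 0 and 0.02 FPKM in controls. MHCC-97L libraries had 8.04 and 7.53 FPKM with Flag-OGT against 0.04 and 0.06 FPKM in controls. SALL3 had 2.04 and 1.72 FPKM in MHCC-97H Flag-OGT libraries and 0.90 and 0.87 FPKM in MHCC-97L Flag-OGT libraries, and was listed at 0 in all controls. SALL1, a kidney development factor, was called higher in MHCC-97H (0.35 ± 0.08, adjusted p = 0.0019; 0.17 and not called with median-of-ratios scaling). In MHCC-97L it was not called (-0.11 ± 0.08, adjusted p = 0.21), but called lower after scaling to a common sum (-0.20) or by median of ratios (-0.27). SALL2 and SALL3 passed the filter only through the Flag-OGT libraries, so a difference in them was a condition of being tested, and no count over the family is given.

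The NuRD complex, the deacetylase that SALL4 recruits, had 11 of 12 subunits called higher and 0 lower in MHCC-97H, and 10 higher and 1 lower in MHCC-97L. Over all tested genes, 48.2% were called higher in MHCC-97H and 50.1% in MHCC-97L. MTA1 had 163.90 and 166.03 FPKM in MHCC-97H Flag-OGT libraries against 31.81 and 29.76 FPKM in controls. RBBP7, a histone chaperone subunit, had 191.99 and 189.33 FPKM in MHCC-97H Flag-OGT libraries against 41.47 and 43.93 FPKM in controls. The scaffold subunit GATAD2B fell by 0.25 in MHCC-97L (adjusted p = 0.0035). The medians were 0.71 in MHCC-97H and 0.82 in MHCC-97L, beside 0.15 and 0.19 over all tested genes. With median-of-ratios scaling 10 were called higher in each line, with 0 lower in MHCC-97H and 1 lower in MHCC-97L.

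Of 7 pluripotency factors, 4 were tested, and 1 rose and 1 fell in each line. Among all tested genes 48.2% were called higher and 36.3% lower in MHCC-97H, and 50.1% and 34.7% in MHCC-97L. SOX2 fell to 4.68 and 5.03 FPKM in MHCC-97H Flag-OGT libraries against 26.67 and 24.79 FPKM in controls, and to 5.44 and 4.69 FPKM in MHCC-97L Flag-OGT libraries against 8.74 and 8.91 FPKM in controls. ZFP42 rose in MHCC-97H (0.26 ± 0.07, adjusted p = 0.0049; 0.00 and not called under quantile normalization) and in MHCC-97L (0.59 ± 0.07, adjusted p = 1.7e-05). POU5F1 and NANOG, whose counts pseudogenes make uncertain, were not called in either line as deposited, but NANOG was called lower in MHCC-97H under quantile normalization (-0.31, adjusted p = 0.029), which left 0 higher and 2 lower there. The medians were 0.08 in MHCC-97H and 0.21 in MHCC-97L, beside 0.15 and 0.19 over all tested genes.

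DLK1, the imprinted Notch-like membrane protein, was at 0 and 0.01 FPKM in MHCC-97H Flag-OGT libraries and 0 in both MHCC-97H controls. It was at 0 in both MHCC-97L Flag-OGT libraries, against 0.01 and 0.06 FPKM in MHCC-97L controls. Its highest value in any library was thus 0.06 FPKM, in 1 MHCC-97L control. Without the filter, DLK1 was not called in MHCC-97H (adjusted p = 0.84) or MHCC-97L (adjusted p = 0.11).

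Other imprinted growth genes and the DLK1 paralog DLK2 went both ways, with 3 higher and 4 lower of 7 tested in each line. For all tested genes the shares were 48.2% higher and 36.3% lower in MHCC-97H, and 50.1% and 34.7% in MHCC-97L. PLAGL1, a growth-suppressing zinc-finger factor, had 33.16 and 32.28 FPKM in MHCC-97H Flag-OGT libraries against 0.02 and 0.05 FPKM in controls, and 20.64 and 21.60 FPKM in MHCC-97L Flag-OGT libraries against 0.08 and 0.02 FPKM in controls. DLK2 rose by 1.55 ± 0.08 and 1.38 ± 0.08 (adjusted p = 3.1e-08 and 9.1e-08). PEG10, a retrotransposon-derived gene often raised in liver cancer, fell to 0.01 FPKM in each MHCC-97H Flag-OGT library against 4.4 and 4.78 FPKM in controls. MEST, an imprinted hydrolase-like gene of the mesoderm, was listed at 0 in both MHCC-97H Flag-OGT libraries, against 3.35 and 4.24 FPKM in controls. PLAGL1 passed the filter only through the Flag-OGT libraries, and PEG10 and MEST only through the controls. The medians were -0.36 in MHCC-97H and -0.37 in MHCC-97L, beside 0.15 and 0.19 over all tested genes. The counts and the medians include PLAGL1, PEG10 and MEST, so neither is a result about the list.

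The size of the change differed between the lines for 5 of the 9 tested genes, 4 upward and 1 downward, beside 63.3% of all tested genes (33.9% upward, 29.4% downward). GPC3 (2.54 ± 0.10, adjusted p = 6.9e-08), IGF2BP2 (0.51 ± 0.09, adjusted p = 0.00097), SALL4 (0.31 ± 0.09, adjusted p = 0.015) and IGF2BP1 (0.28 ± 0.07, adjusted p = 0.0072) changed more upward in MHCC-97H. HMGA2 changed less there (-0.62 ± 0.08, adjusted p = 0.00015). For IGF2BP3 the difference was -0.22 ± 0.09 (adjusted p = 0.053) with a 95% interval of -0.41 to -0.02, and it was called without a filter (0.034), with median-of-ratios scaling (0.038), with quantile normalization (0.010) and without replicate 1 of the MHCC-97H controls (0.021). For AFP it was 0.23 with an interval of -0.08 to 0.54 (adjusted p = 0.17), called without replicate 1 of MHCC-97L Flag-OGT (0.35, adjusted p = 0.043). For LIN28A it was -0.16, with an interval of -0.47 to 0.16 (adjusted p = 0.36).

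Between the control libraries, MHCC-97H and MHCC-97L differed in 6 of the 9 tested genes, 3 higher and 3 lower in MHCC-97H, beside 65.4% of all tested genes (26.5% higher, 38.9% lower). The split of that background moved with scaling, with 4938 higher and 4106 lower under median of ratios against 3589 and 5270 as deposited. HMGA2 was 2.46-fold higher in MHCC-97H (1.2 ± 0.06, limma, adjusted p = 1.6e-07), IGF2BP3 1.88-fold (0.85 ± 0.06, adjusted p = 1.9e-06) and IGF2BP1 1.30-fold (0.36 ± 0.05, adjusted p = 0.00018). SALL4 was lower in MHCC-97H (-0.68 ± 0.07, adjusted p = 1.3e-05). LIN28A was lower too (-0.32 ± 0.10, adjusted p = 0.018), a call lost without a filter, under quantile normalization and without MHCC-97H replicate 1, MHCC-97H replicate 2 or MHCC-97L replicate 2 (-0.33 to -0.22). AFP was also lower (-0.30 ± 0.10, adjusted p = 0.020), a call lost with a pseudocount of 0.1, without a filter, under all 3 other scalings (-0.21 to -0.15) and without MHCC-97H replicate 1 or MHCC-97L replicate 2 (-0.23 and -0.25). IGF2BP2 was not called (0.02 ± 0.07, adjusted p = 0.80), except with median-of-ratios scaling (0.16, adjusted p = 0.042).

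Between the Flag-OGT libraries, 7 of the 9 differed, 5 higher and 2 lower in MHCC-97H, beside 69.7% of all tested genes (33.6% higher, 36.1% lower; 60.2% of the called genes were higher under median of ratios against 48.2% as deposited). GPC3 led (2.54 ± 0.07, adjusted p = 1.5e-08), followed by IGF2BP1 (0.64 ± 0.05, adjusted p = 3.2e-06), IGF2BP3 (0.63 ± 0.06, adjusted p = 1.1e-05), HMGA2 (0.59 ± 0.06, adjusted p = 1.5e-05) and IGF2BP2 (0.53 ± 0.07, adjusted p = 5.5e-05), all higher in MHCC-97H. LIN28A (-0.47 ± 0.10, adjusted p = 0.0019) and SALL4 (-0.36 ± 0.07, adjusted p = 0.00070) were lower in MHCC-97H. LIN28B (-0.00, adjusted p = 0.98) and AFP (-0.07, adjusted p = 0.52) were not called.

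For each tested gene, the most similar profiles were found by Euclidean distance on log2(FPKM + 1) over the 8 libraries, which share their grouping by state. The closest to LIN28B were ELOVL4 (distance 0.107) and CCNJ (0.269). ELOVL4, a fatty acid elongase, had 5.38 and 5.47 FPKM in MHCC-97H Flag-OGT libraries, was listed at 0 in both MHCC-97H controls, and had 4.62 and 5.43 FPKM in MHCC-97L Flag-OGT libraries against 0.02 and 0 FPKM in MHCC-97L controls. The nearest to GPC3 were the receptor NOTCH3 at 0.916 and EMILIN3 at 0.943. The nearest to IGF2BP1 were DPH1 and SMARCC1, to IGF2BP2 POC1A and NR2F2, to IGF2BP3 BTBD1 and BRPF3, and to HMGA2 GINS3 and NUP153. AFP was closest to NFATC2 and HRH1, SALL4 to SPX and PIGR, and LIN28A to TMEM119 and TTC23L.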

How the data were processed

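The values used were FPKM per gene, deposited by the authors with 2 decimals; per the labels' protocols, total RNA came from Trizol extraction and a SMARTer kit gave the libraries. The submitters' processing notes name Bowtie2, HISAT2 2.1.0, RSEM 1.2.4, DESeq2 1.18.1 and hg19; the sources used here do not say which step made the FPKM. Of 18928 features, 26 with symbols turned into dates were left out (at most 0.100% of a library's FPKM), and 55 carry a number as symbol. Genes with a mean of at least 0.5 FPKM over 8 libraries, 13553 in number, were tested on log2(FPKM + 1), which understates changes of low genes. limma 3.58.1 (R 4.3.3) fitted 4 group means with empirical Bayes moderation along a trend, leaving 4 residual degrees of freedom. Within each comparison, Benjamini-Hochberg adjustment covered all tested genes, and an adjusted p under 0.05 was called.

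All 10 genes are named, with the 2 nearest profiles of each, list genes at the 2 highest and 2 lowest called changes, and all genes of lists of at most 5. FIGN, INSR, APOA1, DCN, PTPRC, ZBTB20, POU5F1, NANOG and neighbouring genes were chosen after their values were seen. The members and lists were chosen with earlier results of these data known. Some listed genes are counted but not reported here by name. H19 and MEG3 were not matched; TUT4 and TUT7 were matched through synonyms. Sequences came from RefSeq tables and GENCODE v29; promoter windows were used for 4 of the 10 genes.

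In simulated data of the MHCC-97H comparison, 200 of 13553 genes were given a change, 50 at each size. Recovery was 70% at a log2 change of 0.585, 98% at 1 and 100% at 2 and 3, with 10 false among 194 calls. The measured MHCC-97H comparison had 84.6% of tested genes called, a far larger share, so its recovery and false calls remain unknown. Recovery was not split by expression level or direction, and gives no rate for genes as low as LIN28A or SALL4. Figures and tables used Python 3.11.15, pandas 2.3.3, numpy 2.4.6 and matplotlib 3.10.9. Each result was recomputed with 0.1 as pseudocount, no filter, a filter of 2, a common sum, median of ratios, quantile normalization, no trend, a replicate block, the compared groups alone and each library left out.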

Additional observations from a re-analysis of the deposited data

Results flagged for a closer look

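The change with Flag-OGT differed between MHCC-97H and MHCC-97L, by the test of the difference in limma, for 5 oncofetal genes. On the log2(FPKM + 1) scale, MHCC-97H minus MHCC-97L, the difference was 2.54 for GPC3, 0.51 for IGF2BP2, 0.31 for SALL4, 0.28 for IGF2BP1 and -0.62 for HMGA2. Each stayed past the threshold with any 1 library left out. SALL4 lies below 1 FPKM in all libraries, and OGT itself gained more in MHCC-97H by the same test (0.57, adjusted p = 0.00019).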

How the results depend on the processing

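Of the values of the tested oncofetal genes under the alternatives, 529 kept direction and side of the threshold, 23 lost a call, 9 gained one and 10 changed sign. Of the counts of called genes, 135 stayed within 1.5 times and 1 did not: between control libraries, 3 genes of the set were called with a mean FPKM filter of 2, which tests fewer of them. Sign changes concerned differences near 0. Between Flag-OGT libraries LIN28B was 0.16 with a common sum and 0.13 with median of ratios; with quantile normalization LIN28A changed by -0.10 in MHCC-97H and the LIN28B difference of changes was -0.066. With 1 library left out, that LIN28B difference ran from -0.085 to 0.093, LIN28B between Flag-OGT libraries from -0.092 to 0.086, AFP there from -0.20 to 0.047, and IGF2BP2 between controls from -0.042 to 0.084. The cause was not tested. The split of called genes between control lines, 3589 higher and 5270 lower in MHCC-97H, moved with scaling (4674 and 4230 with a common sum, 4938 and 4106 with median of ratios, 4504 and 4018 with quantile normalization), as did that between Flag-OGT lines, 4551 and 4894 (5932 and 3547 with a common sum, 5679 and 3761 with median of ratios).

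Replicate numbers do not pair the samples: same-numbered deviations correlated with r from -0.21 to 0.31. With the number as a replicate block, 11436 genes were called in MHCC-97H and 11473 in MHCC-97L, against 11460 and 11494 without, and 8 of the set in each. A library left alone in its group was assumed to vary like the others. FPKM carry no read depth, so no counting error is given.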
